A study of Mus musculus with 16 samples.

Results

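Contacts of isolated promoters were described in mouse liver by Promoter Capture Hi-C (P-CHi-C), an assay in which crosslinked chromatin is cut with HindIII, neighbouring ends are ligated, and ligation products that hold a promoter fragment, the bait, are captured and sequenced. A bait on an autosome was taken as isolated where the midpoint of no other bait lay within 300 kb of its own midpoint, and 440 of 17708 autosomal baits (18165 baits in all) met this rule. Livers came from wild-type male C57BL/6 mice, an inbred laboratory strain, 8 weeks old when they entered a period under alternating 12 h spans of light and dark with free access to food, and were taken after it at ZT0, ZT6, ZT12 and ZT18, where zeitgeber time (ZT) counts the hours since lights on. Each timepoint had 3 pools of 2 livers in 4 samples, with 1 pool sequenced on 2 lanes, and the pools had been merged into 1 list of contacts before deposit. No value below therefore has a replicate error, and no difference between timepoints or between groups of baits has a test. The range given with a share is its 95% Wilson interval, which covers counting error only, and the contacts of 1 bait are not independent of each other.

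A promoter in a gene-poor stretch of chromosome can be reached by enhancers, the distal elements that raise transcription, over long distances without another promoter in between. Such stretches, often called gene deserts, tend to flank genes of development and signalling and to hold their distal elements. In Capture Hi-C a contact is a pair of restriction fragments that were ligated more often than their distance would give, and it shows closeness in the nucleus rather than an effect on transcription. The lists gave each pair a CHiCAGO score, a weighted measure of how far its reads exceeded that background, and held pairs with a score of at least 5.

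The promoter sequences of 6 isolated genes show how different the start sites in this class are, from 0 to 37 CpG dinucleotides in a window of 300 bases. Each window runs from 250 bases before the annotated gene start to 50 bases after it in the direction of the gene, from the mm9 genome, with every CG in capitals. Wnt5a, Thrb and Arrdc3 were the protein-coding genes with the most contacts. Slc25a13 and Grb14 were the protein-coding genes of the circadian list with the most. Lingo2, chosen after its values were seen, had 1 contact.
Wnt5a (chr14:29317686-29317985, plus strand): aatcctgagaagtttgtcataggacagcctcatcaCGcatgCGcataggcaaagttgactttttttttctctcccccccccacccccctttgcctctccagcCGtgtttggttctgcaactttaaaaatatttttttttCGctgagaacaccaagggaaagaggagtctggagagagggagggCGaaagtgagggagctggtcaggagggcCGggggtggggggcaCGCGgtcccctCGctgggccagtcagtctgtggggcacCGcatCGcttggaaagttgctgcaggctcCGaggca
Thrb (chr14:18493224-18493523, plus strand): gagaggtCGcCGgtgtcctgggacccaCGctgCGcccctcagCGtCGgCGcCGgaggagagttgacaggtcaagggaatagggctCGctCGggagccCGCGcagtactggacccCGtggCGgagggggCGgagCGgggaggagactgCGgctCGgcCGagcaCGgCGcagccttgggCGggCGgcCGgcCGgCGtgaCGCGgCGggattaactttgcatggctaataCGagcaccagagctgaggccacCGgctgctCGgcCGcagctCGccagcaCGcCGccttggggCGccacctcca
Arrdc3 (chr13:81022395-81022694, plus strand): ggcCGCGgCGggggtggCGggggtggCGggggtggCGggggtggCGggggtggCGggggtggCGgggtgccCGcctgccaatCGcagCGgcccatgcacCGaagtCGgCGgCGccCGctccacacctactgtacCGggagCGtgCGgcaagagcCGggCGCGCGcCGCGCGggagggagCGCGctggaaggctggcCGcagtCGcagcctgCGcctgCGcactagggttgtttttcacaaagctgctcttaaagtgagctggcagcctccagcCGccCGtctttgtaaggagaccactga
Slc25a13 (chr6:6167124-6167423, minus strand): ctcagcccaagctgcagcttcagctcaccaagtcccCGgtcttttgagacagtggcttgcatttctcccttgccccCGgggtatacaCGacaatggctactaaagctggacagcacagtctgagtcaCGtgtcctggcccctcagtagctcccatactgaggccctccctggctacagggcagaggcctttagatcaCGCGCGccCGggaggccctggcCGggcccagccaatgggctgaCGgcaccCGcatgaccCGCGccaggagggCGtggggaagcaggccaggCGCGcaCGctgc
Grb14 (chr2:64862995-64863294, minus strand): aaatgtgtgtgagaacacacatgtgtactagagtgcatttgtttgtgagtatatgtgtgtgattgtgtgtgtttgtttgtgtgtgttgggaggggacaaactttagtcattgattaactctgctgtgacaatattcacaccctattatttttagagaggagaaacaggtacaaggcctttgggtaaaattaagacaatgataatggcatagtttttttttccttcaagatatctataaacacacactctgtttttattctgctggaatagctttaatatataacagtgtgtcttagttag
Lingo2 (chr4:36898731-36899030, minus strand): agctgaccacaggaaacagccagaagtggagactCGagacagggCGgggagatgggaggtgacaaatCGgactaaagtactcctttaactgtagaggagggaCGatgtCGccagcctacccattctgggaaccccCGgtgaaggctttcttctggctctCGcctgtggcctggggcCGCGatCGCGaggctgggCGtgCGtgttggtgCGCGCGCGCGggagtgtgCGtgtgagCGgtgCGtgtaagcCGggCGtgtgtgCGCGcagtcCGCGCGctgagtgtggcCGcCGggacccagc
The Thrb and Arrdc3 windows held 37 and 35 CpG, with 99 and 92 contacts, but Lingo2 held 30 CpG with a single contact. Grb14 held none and had 27 contacts. Wnt5a, which had the most contacts of all 440, held 12. Over the 305 isolated baits with a protein-coding start, the median was 13 CpG, against 14 for the other 14431 such baits. Isolated promoters with an observed to expected CpG ratio of at least 0.6 had a median of 6 contacts (n = 154) and those below it 3 (n = 151), against 11 (n = 7309) and 9 (n = 7122) for the other baits. In both classes of promoter the isolated baits had the lower median. These medians count all ends, and by the rule an isolated bait has no bait end within 300 kb, so the rule bears on them. The letters CACGTG, the E-box to which clock transcription factors can bind, read on both strands, were found in 16 of 305 isolated windows (5.25%, 3.25 to 8.35%), in 8.51% of the windows of other baits and in 7.78% of the 21418 autosomal protein-coding windows. Among the windows printed, Slc25a13 alone held these letters. The letters are a description of the window and no measure of binding.

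By the annotation of the same build (GENCODE), the neighbourhoods of isolated baits were poor in genes, with exceptions. The rule itself favours this within 300 kb, since the baits are promoter fragments. A median of 0 further protein-coding genes started within 300 kb (quartiles 0 to 1), against 9 for the other autosomal baits (5 to 17). Within 1 Mb the medians were 6 and 28. No further protein-coding start lay within 300 kb of 268 of the 440 baits (60.9%), and of 200 of the 17268 others (1.16%). The remaining isolated baits had at least 1 such start that was on no listed bait within the window, and 16 had 5 or more. These 16 included members of gene families, such as Prl8a6 with 14 and Prl2a1 with 11, of the prolactin family, and the taste receptor gene Tas2r114 with 7, named after their values were seen. Isolation is therefore isolation from other listed baits, and a neighbour without any listed contact was not seen by the rule. The nearest bait lay 300.5 to 4271 kb away (median 449.7 kb). The 4 baits just outside the limit, from 296.6 to 297.8 kb, were Mdm1 with 9 contacts, Phactr3 with 7, Gm8730 with 2 and a SNORA17 bait with 5. The 4 just inside it, from 300.5 to 300.7 kb, were another SNORA17 bait with 10, Cacng3 with 22, Fpr-rs6 with 1 and Cited2 with 23.

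Chromosome 1 held 51 isolated baits, 4.66% of its baits, and chromosome 9 held 11 (1.05%), the highest and the lowest share. The 600 kb around isolated baits had a median GC content of 39.9%, against 44.8% for other baits, and the bait fragments themselves 43.9% against 47.3%. There were 202 HindIII sites per 600 kb against 179, so potential partners were slightly denser, and the bait fragments had similar lengths (median 5456 and 5877 bp). A protein-coding gene started on 305 of the 440 isolated baits (69.3%), against 83.6% of the others. Another 121 carried only other gene types (27.5% against 15.7%), and 14 no annotated start (3.18% against 0.707%). Starts of snoRNA, snRNA or miRNA genes, but of no protein-coding gene, were on 104 isolated baits (23.6%, 19.9 to 27.8%) and on 11.2% of the others (10.8 to 11.7%). Of the 104, 36 carried the snoRNA annotation SNORA17 and 20 that of the spliceosomal RNA U6. Both are repeated across the genome. Reads that fall within near-identical copies are uncertain, and how many reads of these baits do so was not examined.

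Isolated promoters had few contacts as a rule, and a small number had very many. Over the 4 timepoints the median was 3 distinct contacts (quartiles 1 to 10, highest 102), against 9 (4 to 21, highest 202) for the other autosomal baits. The 1836 baits in the densest neighbourhoods, with at least 21 other baits within 300 kb, had a median of 18. The rule bears on these totals, since a neighbouring bait is itself a possible partner and an isolated bait has none within 300 kb. With ends that were no bait alone, the medians were 2 (quartiles 1 to 9, mean 8.90) for isolated and 5 (1 to 16, mean 11.7) for other baits. A single contact was listed for 149 of the 440 (33.9%, 29.6 to 38.4%), against 7.96% of the others (7.56 to 8.37%). At the upper end the groups were closer, with at least 50 contacts for 22 isolated baits (5%, 3.32 to 7.45%) and for 6.04% of the others (5.69 to 6.41%). The 44 isolated baits with the most contacts held 54.3% of all contacts of the class. Over all ends the median went from 3 with no bait within 300 kb to 5 with 1 to 2, 8 with 3 to 5, 8 with 6 to 10, 10 with 11 to 20, and 18 with 21 to 50. Over ends that were no bait the same classes gave 2, 4, 6, 5, 4 and 8, so the isolated class was the lowest but the rise was not steady. Protein-coding baits alone gave 4 for isolated and 10 for other baits. Within each quartile of bait length the isolated baits had the lower median, between 2 and 3.5 contacts against 8 to 10, again over all ends. Across the 440 baits the number of contacts had a rank correlation of 0.35 with the GC content of the bait and of -0.03 with its length, given as a description. The part of GC content in the lower number of contacts was not tested. The 104 small RNA baits had a median of 1.5 contacts, and 13 of them had 10 or more.

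**Figure D1:**
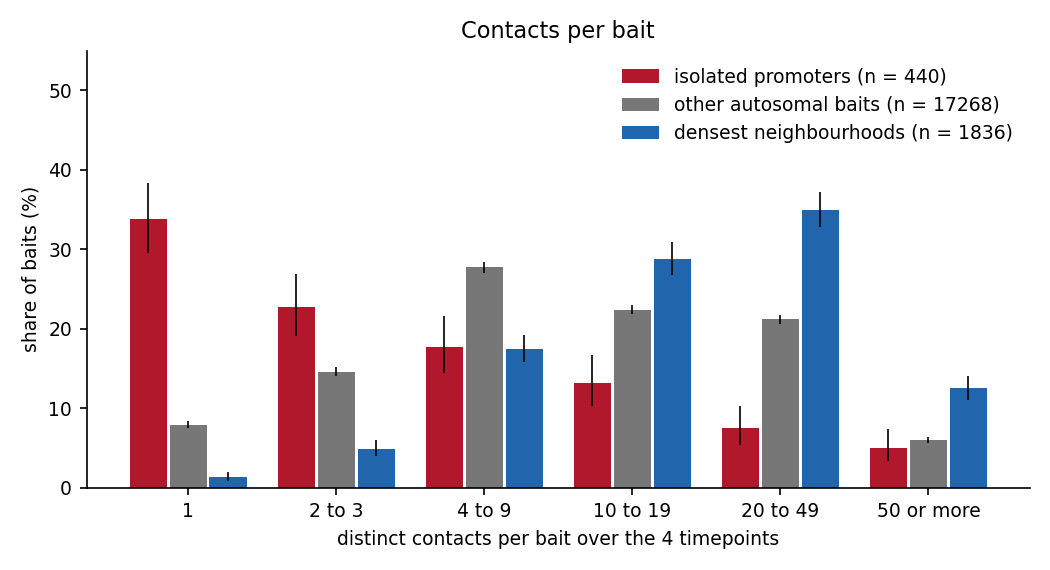
Share of baits (%) by the number of distinct contacts over the 4 timepoints, for 440 isolated promoters, 17268 other autosomal baits and, as a subset of these, 1836 baits in the densest neighbourhoods, with 95% Wilson intervals. A single contact was the most common class for isolated promoters (33.9%), while the class of 50 or more held 5% of them and 6.04% of the other baits.

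The contacts that isolated promoters made reached far. All 4174 contacts, counted from the isolated end, lay on the bait's own chromosome, as did all but 0.0837% of the contacts of other baits. The median distance to an other end that was no bait was 269.7 kb (262.7 to 279.7 kb, n = 3916), against 159.0 kb (158.2 to 159.8 kb, n = 202447) for other baits and 125.9 kb in the densest neighbourhoods. More than 150 kb separated the ends of 74.4% of these contacts (73.0 to 75.7%), against 52.6%. More than 300 kb were spanned by 45.3% (43.8 to 46.9%) against 21.5%, and more than 1 Mb by 3.55% (3.01 to 4.18%) against 1.17%. Baits with 1 to 2 neighbours were close to the isolated ones, with a median of 253.3 kb, and the median then declined to 198.0, 157.3 and 127.2 kb in the next 3 classes of neighbour number. At each timepoint alone the median for isolated promoters was between 239.7 kb (ZT12) and 263.5 kb (ZT0), and for other baits between 139.0 and 148.2 kb. Most of these contacts, 83.8%, ended between the bait and its nearest flanking bait, a share that the rule itself favours, and for 50.6% of them the isolated bait was the closest bait of all. Only 8.53% of the non-bait ends of isolated promoters were also contacted by another bait (7.69 to 9.45%), against 69.8% for other baits, and the rule bears on this share as well.

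**Figure D2:**
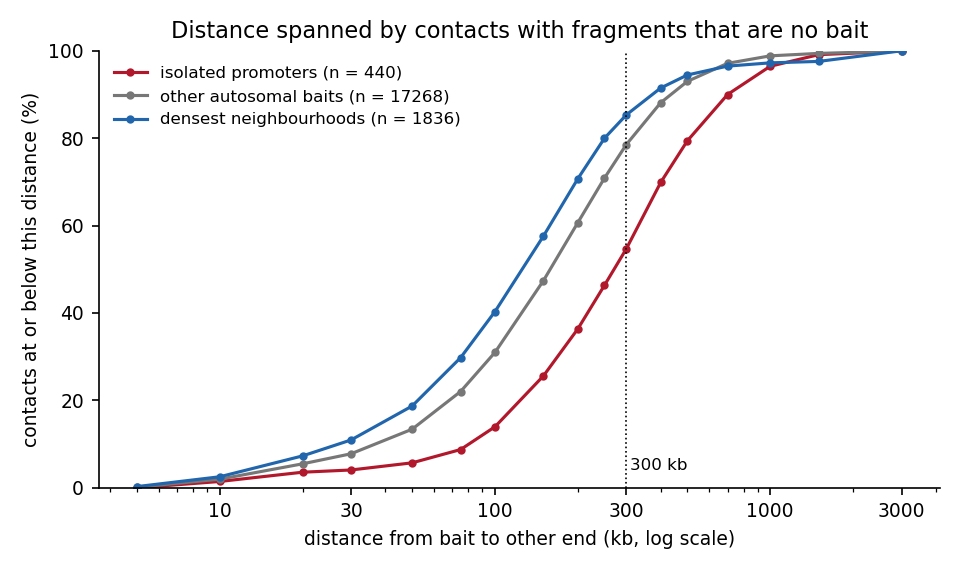
Cumulative share of contacts (%) against the distance from the bait to the other end (kb, log scale), for contacts whose other end is no bait. The dotted line marks 300 kb, below which 54.7% of the contacts of isolated promoters lay, and the curve of isolated promoters runs to the right of the other curves up to about 1 Mb.

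Wnt5a, which encodes a secreted Wnt ligand of the non-canonical pathway, had the most contacts of any isolated promoter, 102. From ZT0 to ZT18 the numbers were 59, 69, 51 and 60, and 30 pairs were listed at all 4 timepoints. Its bait (chr14:29311865-29321447) lay 510.9 kb from the nearest other bait. The strongest block of contacts, 23 fragments over chr14:28586465-28658425, lay 661.5 to 727.9 kb away within the gene Erc2, and its best fragment, in an intron, scored 28.2, 50.9, 33.9 and 29.5 in the order of the timepoints. Further blocks of 22 and 21 fragments lay within Erc2 at 346.8 to 426.5 kb and at 197.9 to 270.8 kb. No contact was inside Wnt5a itself, and 85 of the 102 lay on the side of lower coordinates.

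Thrb, the gene of the thyroid hormone receptor that predominates in liver, was the opposite case. Of its 99 contacts, 96 lay within its own gene of 377.1 kb, and 67 were listed at all 4 timepoints. The numbers per timepoint were 85, 83, 83 and 78 from ZT0 to ZT18. Its best fragment (chr14:18732895-18733531), 239.7 kb into the gene, lay in an intron and scored 27.99, 24.98, 34.22 and 26.78. A single block of 80 fragments covered chr14:18525930-18768078. Arid1b, a subunit of the SWI/SNF chromatin remodelling complex, had 88 contacts, 57 within its gene, and Sipa1l1, which acts on the small GTPase Rap, had 80 with 70 inside.

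Arrdc3, an alpha-arrestin gene, made 92 contacts, all of them on the downstream side. Per timepoint it had 67, 72, 60 and 52. The main block of 51 fragments (chr13:81409345-81580701) lay 390.1 to 559.6 kb away within Gpr98, which encodes a large adhesion G protein-coupled receptor. The best fragment there scored 45.6, 56.2, 36.2 and 41.5, which included the highest score of any isolated promoter. Adamts1, a secreted metalloprotease gene, scored 49.4, 53.6, 47.2 and 55.5 with a fragment 842.6 kb away (chr16:86642248-86645629) in which no gene is annotated. All its 74 contacts lay upstream, 393.2 to 1632 kb away, with a median distance of 834.4 kb. Dkk1, a secreted inhibitor of Wnt signalling, had 47, 51, 45 and 45 contacts, of 55 in all, and 39 were listed at every timepoint (70.9%), the highest share among the 8 genes with most contacts and the 5 with the highest scores. Its best fragment (chr19:30330257-30335538) lay 293.1 kb away, had no annotated gene and scored 38.3, 32.6, 42.3 and 34.0. Without replicates, no difference between timepoints in these scores can be called.

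Parm1 (85 contacts), App (85), which encodes the amyloid precursor protein, and 1300010F03Rik (80), a protein-coding gene known by a clone name, completed the 8 isolated promoters with the most contacts. Parm1 contacted a block of 57 fragments 323.7 to 542.6 kb downstream (chr5:92269491-92489141), which holds Rchy1, Thap6, Cdkl2 and G3bp2, and nothing within its own gene. App combined a block of 46 fragments covering much of its own gene, 37 of them listed at all 4 timepoints, with 10 fragments 484.0 to 515.5 kb upstream in a stretch with no annotated gene. The uncharacterised 1300010F03Rik had 55 of its contacts inside its own gene and 12 in a block within Dgkh, a diacylglycerol kinase gene, where the best fragment scored 17.7, 21.5, 23.7 and 14.6. The third highest score belonged to 2810007J24Rik, with 54.0 at ZT0 and 39.4, 26.9 and 34.1 at the later timepoints for a fragment 72.8 kb away. The 8 promoters with the most contacts together held 711 contacts, 17.0% of those of the class.

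**Figure D3:**
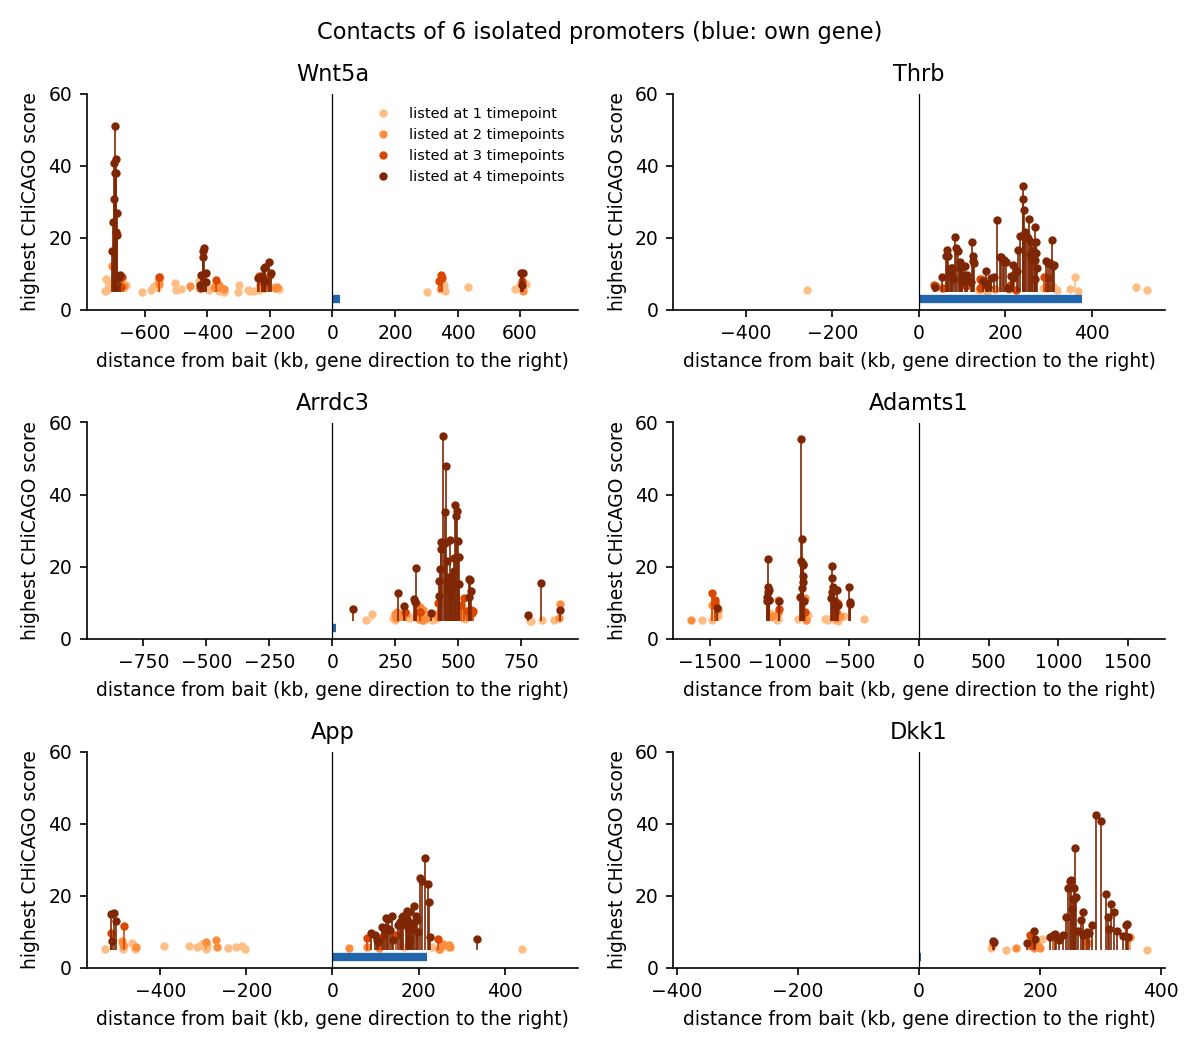
Contacts of 6 isolated promoters, with the signed distance from the bait (kb, right is the direction of the gene), the highest CHiCAGO score over the timepoints as height, and the number of timepoints as colour. The blue bar is the own gene. Thrb and App contacted their own gene, Wnt5a and Adamts1 mainly upstream sequence, and Arrdc3 and Dkk1 downstream sequence alone, each in blocks of neighbouring fragments.

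Contacts on a single side of the bait, as for Arrdc3, Adamts1, Dkk1 and Parm1, were common in the class. Of 108 isolated promoters with at least 10 contacts to fragments that were no bait, 69 had all of them on 1 side (63.9%, 54.5 to 72.3%), against 2189 of 6353 other baits (34.5%, 33.3 to 35.6%). The difference was seen at 10 to 19 contacts (70.9% against 41.8%), at 20 to 49 (66.7% against 30.4%) and at 50 or more (40.0% against 18.8%), where the 20 isolated promoters gave an interval of 21.9 to 61.3%. Among those with every contact on 1 side were also Prkce, a protein kinase C gene with 76, Khdrbs3, an RNA-binding protein gene with 73, and Wdfy3 with 52, named after their values were seen. The side with most contacts was the one with the more distant flanking bait for 44 of 108 isolated promoters (40.7%, 31.9 to 50.2%). For the other baits it was so in 54.9%. The number of separate blocks was similar, with a median of 5 per bait in both groups when fragments up to 10 kb apart were joined, and 4.36 against 4.13 contacts per block.

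Genes that started on isolated baits were long, with a median of 109.9 kb against 18.5 kb, and a larger share of their contacts lay inside the gene. Of 3456 contacts of isolated protein-coding promoters with fragments that were no bait, 33.6% fell in the own gene (32.1 to 35.2%), against 10.6% for other baits. Within classes of gene length this difference was not kept. In genes of 200 kb or more the shares were 63.3% (60.9 to 65.6%) and 60.7% (59.7 to 61.8%). Between 50 and 100 kb they were 16.8% and 18.2%, and in genes of 100 to 200 kb the isolated promoters had the lower share, 20.2% (17.1 to 23.7%) against 38.6%. Shorter genes gave 0.821% and 2.82%. Outside the own gene, contacts were somewhat less often downstream than upstream, with 44.9% downstream (42.8 to 46.9%) against 47.0% for other baits. The fragments contacted overlapped an exon of a protein-coding gene in 12.2% (11.2 to 13.3%), against 33.4%, lay within an intron in 42.5% against 27.6%, and held no protein-coding gene in 45.3% against 39.0%. Of the intronic contacts of isolated promoters, 33.7% were listed at all 4 timepoints, against 31.0% for other baits, and of the intergenic ones 22.5% against 32.1%. Exonic ones gave 29.1% and 32.4%.

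**Figure D4:**
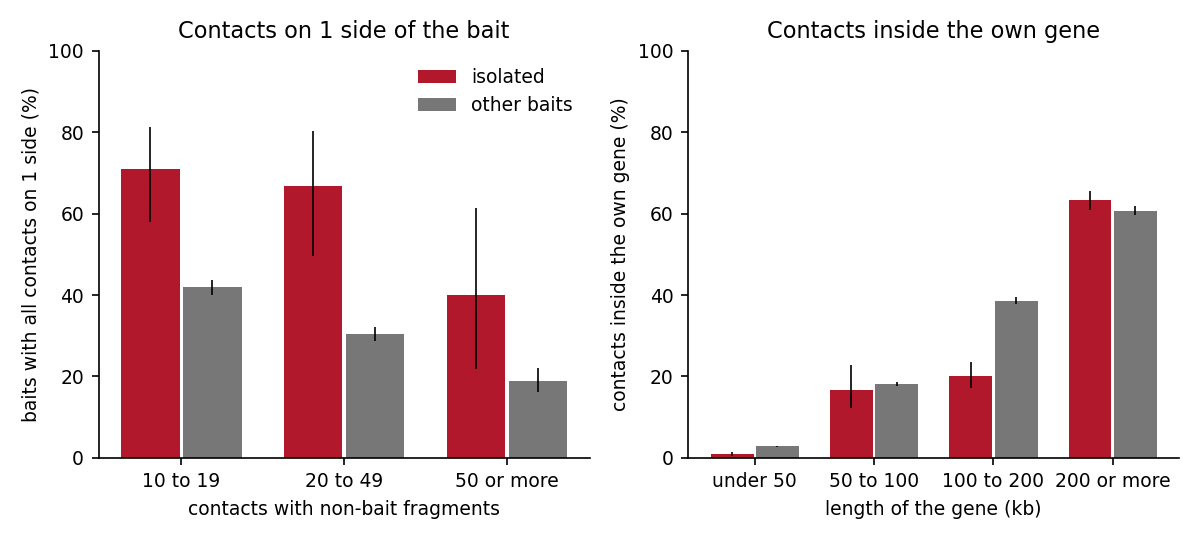
Left, share of baits (%) whose contacts with non-bait fragments all lie on 1 side, by number of contacts. Right, share of contacts (%) inside the own gene, by gene length (kb). Red is isolated promoters, grey the other autosomal baits, with 95% Wilson intervals. Isolated promoters stand higher in every class on the left (70.9, 66.7 and 40.0%) but not on the right.

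Most contacts of isolated promoters were listed at some timepoints and not at others. Of 4174, 1161 were listed at all 4 timepoints (27.8%, 26.5 to 29.2%), against 33.3% (33.1 to 33.4%) of the contacts of other baits and 32.5% of all 247177 pairs of the series. The share was not particular to isolated promoters, since baits with 1 to 2 neighbours had 27.7% (27.1 to 28.3%), while it was 33.3% with 3 to 5. Where a pair with an other end up to 10 kb away was accepted at the other timepoints, the shares were 61.2% (59.7 to 62.6%) and 63.4% (63.2 to 63.6%). A single timepoint accounted for 39.9% (38.4 to 41.4%) against 34.5%. Distance moved with this share, and its part in the difference was not tested. Among contacts with non-bait fragments of 150 to 300 kb the shares at all 4 timepoints were 29.3% (26.7 to 32.0%) and 29.1%, and at 300 to 500 kb isolated promoters had the higher share, 25.3% (22.7 to 28.1%) against 20.3%. At 50 to 150 kb the shares were 37.2% (33.9 to 40.7%) and 38.4%, and below 50 kb 34.4% (28.5 to 40.8%) and 42.2%. At equal score the shares were lower for isolated promoters in the middle of the range, 34.3% (31.5 to 37.2%) against 41.1% at scores of 7 to 10 and 81.5% (77.9 to 84.6%) against 86.1% at 10 to 15, while all 242 contacts with a score of 15 or more were listed at every timepoint. The median of the highest score was 6.77 for isolated and 7.01 for other baits. Of the 440 promoters, 209 had a contact at each timepoint, 113 at a single one, and 167 had at least 1 pair listed throughout.

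Isolated promoters held between 1.5 and 1.72% of the pairs of each list. They accounted for 2346 of 146262 pairs at ZT0 (1.60%, 1.54 to 1.67%) and 2661 of 154775 at ZT6 (1.72%, 1.66 to 1.79%). The numbers were 2277 of 151529 at ZT12 (1.5%, 1.44 to 1.57%) and 2270 of 151347 at ZT18 (1.5%, 1.44 to 1.56%). The highest share was in the list labelled ZT6, and without replicates it has no test. A summary accompanying the study has the totals of the lists of ZT6, ZT12 and ZT18 under ZT18, ZT6 and ZT12, and in that order the list would be ZT18. Of the pairs seen at a single timepoint, 587 were at ZT6, 388 at ZT0, 358 at ZT18 and 332 at ZT12. Divided by the list totals, the number of contacts of a promoter peaked at ZT0 for 33.6% and at ZT6 for 27.7% of isolated promoters. ZT12 was the highest for 17.3% and ZT18 for 21.4%. The same shares of the other baits were 31.2%, 20.8%, 21.2% and 26.8%. Equal numbers at all timepoints fall to ZT0 in this count, since its list was the shortest. The order of ZT0 and ZT6 turned with the setting. Raw numbers without ties (303 promoters) gave 18.8% for ZT0 and 40.9% for ZT6, a score of at least 10 gave 30.2% and 33.8%, and a window of 500 kb gave 28.7% and 29.2%.

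Among isolated promoters with at least 10 contacts, differences of at least 2-fold towards ZT6 were more frequent than over all autosomal baits with as many. With 1 added to each number and division by the list totals, 10 of 113 had at least 2-fold more contacts at ZT6 than at ZT18 (8.85%, 4.88 to 15.5%), against 2.47% of the 8689 autosomal baits with as many contacts. In the reverse direction 3 of 113 did (2.65%, background 3.12%). Between ZT0 and ZT12, 7 of 113 were higher at ZT0 (6.19%, 3.03 to 12.2%, background 2.77%) and 2 at ZT12 (1.77%, background 2.59%). At 1.5-fold the counts were 27 towards ZT6 and 4 towards ZT18 (backgrounds 9.46% and 9.87%), and 17 towards ZT0 and 7 towards ZT12 (backgrounds 9.54% and 10.3%). The 2-fold calls rested on small numbers: 8 of the 10 towards ZT6 had 10 to 19 contacts in all, as did 6 of the 7 towards ZT0. In that band the share towards ZT6 was 13.8% (7.16 to 24.9%), against 3.64% of other baits. Towards ZT0 it was 10.3% (4.83 to 20.8%) against 4.47%. In the reverse directions the shares were 5.17% against 5.06% (ZT18) and 3.45% against 3.95% (ZT12). Those towards ZT6 included the small RNA baits SNORA17 (chromosome 11), AC154368.1 and AC102435.1, named after their values were seen. They also included Skint10 and Skint6, of 1 gene family. AC102435.1 shared a pair listed at ZT6 alone with Trib2, another of the 10, so these calls are not all separate. None of the 22 isolated promoters with 50 or more contacts passed 2-fold in any of the 4 directions. With the lists read in the order of that summary, 1 promoter was higher at ZT6 and 9 at ZT18, so the direction rests on the sample labels. The following were named after their values were seen. Trib2, a pseudokinase gene, had 15, 18, 7 and 5 contacts and was 3.10-fold higher at ZT6 than at ZT18 and 2.07-fold higher at ZT0 than at ZT12. Csmd1, a large membrane protein gene expressed in brain, had 7, 10, 1 and 3. Grik3, a kainate receptor gene, went the other way with 0, 2, 8 and 10, and it was called for both ZT12 and ZT18. Man1a, a mannosidase gene with 5, 12, 13 and 9, was the other promoter higher at ZT12, and Bche, the butyrylcholinesterase gene, with 10, 5, 9 and 12, and Gabra5, a GABA receptor gene, with 8, 3, 2 and 7, were the others higher at ZT18. Per 100000 listed pairs, the widest differences between the highest and the lowest timepoint were those of 1300010F03Rik (42.6 at ZT6, 28.4 at ZT18), Arid1b (50.8 at ZT12, 37.5 at ZT6) and Pid1 (34.9 at ZT0, 22.4 at ZT12), the last a gene linked to insulin signalling.

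**Figure D5:**
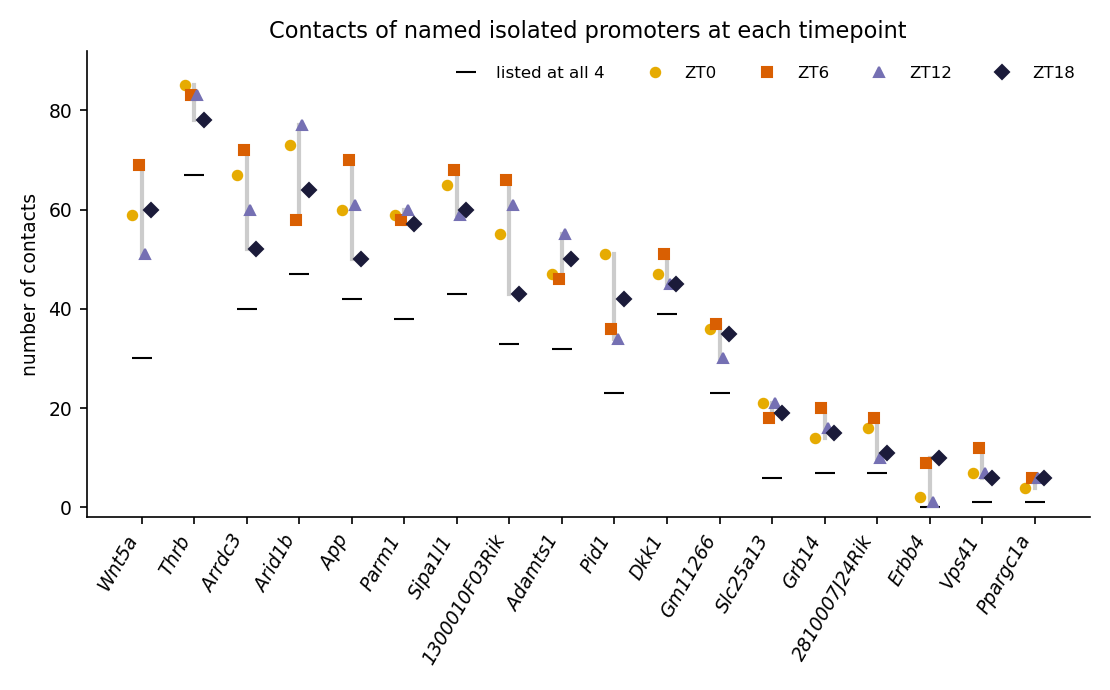
Number of contacts at each timepoint for the named isolated promoters with 10 or more contacts in all, with the number listed at all 4 timepoints as a black bar. Thrb had 78 to 85 contacts and 67 throughout, and Wnt5a 51 to 69 with 30 throughout. Each symbol is 1 list, without replicates.

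Few genes of the circadian list lay on isolated baits: 12 of the 1100 autosomal baits that carried one, or 2.73% of isolated baits against 6.30% of the others. That list accompanies the study and holds genes whose liver transcripts differed between at least 1 pair of timepoints. Gm11266, a noncoding gene, had the most contacts, with 36, 37, 30 and 35 (52 in all). Its best fragment lay 109.0 kb away in an intron of Nfib, a transcription factor gene. The Gm11266 bait itself lay within the annotated span of Nfib, so this contact was inside that gene. A second block of 7 fragments about 1 Mb away (chr4:81149130-81168369) scored up to 18.6. Slc25a13, the mitochondrial carrier citrin, had 21, 18, 21 and 19 contacts (40 in all), 6 of them throughout. Grb14, an adaptor that inhibits the insulin receptor, had 14, 20, 16 and 15 contacts (27 in all). They included blocks of 13 fragments at Cobll1 and 8 at Slc38a11. The best fragment, at Slc38a11, scored 6.30, 12.6, 12.55 and 8.54 from ZT0 to ZT18. Erbb4, a receptor tyrosine kinase gene, had 2, 9, 1 and 10, and none of its 17 contacts was listed throughout. Vps41, part of a vesicle tethering complex, had 7, 12, 7 and 6. The nuclear receptor gene Nr2f2 (7 contacts), Mctp2 (7) and Phf14 (5), which shares its bait with Ndufa4, had few, and the remaining 4 had between 1 and 3.

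Few genes from a list of hepatocyte metabolism and signalling genes were in the class. On this list, 2 of 250 baits (0.8%) were isolated. The list does not hold every gene that works in liver, and Thrb and Slc25a13, described above, are not on it. Of 21 baits with core clock and output transcription factors none was isolated, but 21 are too few to read beside the share of all autosomal baits. Ppargc1a, a coactivator of gluconeogenic and mitochondrial genes, had 4, 6, 6 and 6 contacts, of which 8 of 12 formed a block 493.4 to 508.4 kb away (chr5:52450969-52469283). Its best fragments scored no more than 8.70. Cyp2c70, a cytochrome P450 of mouse bile acid synthesis, had 3 contacts, 2 of them throughout, and its best fragment 30.2 kb away scored 10.2, 6.67, 13.8 and 12.9. Genes of cell adhesion and axon guidance were present in larger number, 28 of 167 baits on that list (16.8%), followed by ion channels and neurotransmitter receptors with 18 of 212 (8.49%) and developmental transcription factors with 9 of 238 (3.78%), beside 440 of 17708 for all autosomal baits. The adhesion genes had a median of 7.5 contacts, and 13 of 28 had a contact with a score of at least 10 (46.4%), against 90 of 139 for the other baits of that list (64.7%). Examples, named after their values were seen, were the protocadherin gene Pcdh20 (24, 19, 21 and 15 contacts), the Slit receptor gene Robo1 (21, 23, 12 and 14), with all 34 in its own gene, and Sema6d, a guidance cue gene, with 10, 15, 10 and 12. The channel and receptor genes had a median of 3, from 1 to 31 in the calcium channel gene Cacna1e, and the transcription factors 9, up to 18 in both Sox4 and Sox9. In each of these 3 lists the isolated baits had the lower median, with 10, 8 and 10 for the other baits of the lists in the same order. These medians are over all ends, so the rule bears on them, and they were not taken over ends that were no bait.

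The promoters farthest from any other bait had next to no contacts. Gm16054, 4271 kb from the nearest bait, was listed at ZT18 alone with a score of 5.69. Pcdh9, a protocadherin gene at 3441 kb, had 2 contacts, and Csmd3 at 3073 kb had 3, in both cases within the own gene. Reg3b, an antimicrobial lectin gene at 3554 kb, had a single contact 13.2 kb away that was listed at all 4 timepoints with scores of 5.73 to 7.30. That fragment carries the start of its paralogue Reg3d. Reg3b had 6 further protein-coding starts within 300 kb, none on a listed bait, so it was far from listed baits but not from other genes. Over all 440 promoters the number of contacts and the distance to the nearest bait had a rank correlation of -0.16, given as a description.

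Contacts in which the other end was also a listed bait made up 258 of the 4174 (6.18%, 5.49 to 6.95%). For other baits the share was 26.9%. By the rule none of the 258 was nearer than 300 kb. A promoter on no listed bait, such as that of Reg3d, is not counted here. Beyond 300 kb the shares were 12.7% of 2033 contacts and 31.7% of 63608. The 258 contacts came from 159 of the 440 promoters, spanned a median of 547.4 kb, and 62 of them (24.0%) were listed throughout. Among the genes described above, Parm1 reached the shared promoter of Rchy1 and Thap6 over 445.9 kb with scores of 14.46, 18.53, 24.94 and 20.24. Dkk1 reached Mbl2, the mannose-binding lectin made by liver, over 317.2 kb with 14.51, 12.59, 17.81 and 14.69. Arrdc3 reached Polr3g and Mblac2 over 826.7 kb with 15.4, 11.9, 9.54 and 12.9. Slc25a13 reached Shfm1 over 364.1 kb with 8.17 at ZT0, 11.3 at ZT12 and 5.14 at ZT18, and it was not listed at ZT6. Both ends were isolated in 14 pairs, for example Bbx and 5330426P16Rik, 303.0 kb apart, with 14.98, 18.24, 19.26 and 18.32, named after their values were seen. The longest contacts of the class started at a SNORA17 bait on chromosome 1 and spanned 52250 and 50035 kb. The first of these scored 10.1, 10.2 and 5.53 at ZT6, ZT12 and ZT18. All others spanned at most 6732 kb.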

How the data were processed

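P-CHi-C was done on 16 samples, 4 per timepoint. Per the labels and the methods, the authors mapped reads to mm9 with HiCUP and ran CHiCAGO on the merged pools of every timepoint. The deposited value of each pair of HindIII fragments is the CHiCAGO score the authors computed, and pairs under 5 are not listed. A pair just below that minimum is therefore absent, and a deeper list can hold more pairs. Read depth was not analysed here. Timepoints follow the sample labels. For 3 lists the totals stand under other timepoints in a summary of the study, so every statement that tells ZT6, ZT12 and ZT18 apart depends on the labels, and that order was run as an alternative.

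Pairs were treated as unordered and contacts were counted from both ends with pandas 2.3.3 and numpy 2.4.6. Of 129886 listed nuclear fragments, 129886 matched HindIII fragments of the mm9 genome used for sequences, with GENCODE gene starts. The rule for isolated baits and the count of contacts per bait were tested on simulated fragments. Distances are between midpoints. Shares have 95% Wilson intervals. A median distance has an interval from its ranks. No test was run, since replicates had been merged.

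The members and lists were chosen with earlier results of these data known. Genes were named by rule: the 8 promoters with most contacts, the 5 with the highest score, up to 8 of the circadian list with at least 5 contacts, those on the hepatocyte or clock lists, the 4 farthest from another bait and the 3 with the widest difference between timepoints per 100000 listed pairs. Others are marked as named after their values were seen. Alternatives covered the window, the score minimum, the definition of distance, list totals, the order of the lists and the fold.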

Additional observations from a re-analysis of the deposited data

How the results depend on the processing

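No paired analysis was possible because each list combines all pools, and for the same reason no replicate could be left out. The number of isolated promoters depended on the window, with 858 at 200 kb and 178 at 500 kb, and fell to 268 when no further annotated protein-coding start was allowed within 300 kb. The median number of contacts was 1 at a score of at least 7 and 0 at a score of at least 10, where the other baits had 4 and 1. With ends that were no bait alone, an alternative added after seeing the data, it was 2. The share of pairs at all 4 timepoints was 61.2% when an other end within 10 kb was accepted. The median distance was 245.2 kb with a window of 200 kb, 336.3 kb with 500 kb, and 291.3 kb with bait ends included. In each setting of window and score, isolated promoters had a lower share at all 4 timepoints and a longer median distance than the other baits. They also had a lower median number of contacts over all ends, on which the rule bears. The share with most contacts at ZT0 was 28.7% with a window of 500 kb and 18.8% with raw numbers, where ties were left out. For ZT6 it was 33.8% at a score of at least 10, 40.9% with raw numbers and 17.3% when the lists of ZT6, ZT12 and ZT18 were read as ZT18, ZT6 and ZT12. For ZT12 it was 21.9% with a window of 500 kb, 11.6% at a score of at least 7 and 21.4% with the lists read in the other order, and for ZT18 it was 27.7% in that order. At 1.5-fold, 17 promoters were higher at ZT0 than at ZT12, 7 at ZT12 than at ZT0 and 27 at ZT6 than at ZT18. With the lists in the other order, also added after seeing the data, 4 were higher at ZT12 than at ZT0, 1 at ZT6 than at ZT18 and 9 at ZT18 than at ZT6, so the direction between ZT6 and ZT18 rests on the labels. The cause of these changes was not tested. Single-sided contacts were tried with a score of at least 7 and without small RNA baits, also after seeing the data, and gave 67.3% and 60.8%. At a score of at least 7 the other baits had 46.2%.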
